A study of Drosophila melanogaster with 6 samples.

Results

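The mRNAs of 10 Wingless signal transduction genes were followed through TU-decay, a pulse-chase assay of RNA decay, in intact Drosophila embryos. The genes were por, fz, fz2, arr, dsh, Axn, sgg, arm, pan and nkd, taken by their symbols with case kept from the 9940 genes tested on the arrays. They were represented by 32 probes, of which 31 were used. The probe left out was 1 of 4 for arm, whose UO pulse spot lay on a local background above the limit of 1000.

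Wingless is a secreted, lipid-modified Wnt protein that patterns the embryonic epidermis, nervous system and mesoderm. Without it, a complex built on Axin holds the kinase Shaggy to Armadillo, the fly beta-catenin, which is phosphorylated and destroyed. When Wingless binds a Frizzled receptor together with the co-receptor Arrow, Dishevelled disables that complex, and Armadillo accumulates and switches on target genes together with the DNA-binding protein Pangolin.

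All embryos were stage 12 to 15, labelled wildtype, and carried UAS-T.g.UPRT with no GAL4 driver, so the tagging of RNA did not depend on that transgene. They were soaked in 1 mM 4-thiouridine for 1 hour at 30°C (the pulse), then chased in 10 mM uridine for 1 or 3 hours, either without (UO) or with (U + actD) actinomycin D, an inhibitor of transcription. Several collections were pooled for each time point, the tagged RNA was purified and labelled with Cy3, and each of the 6 groups had 1 single-channel array. The labels thus give no replicates within a group, the 2 series stood in for replicates in the tests, and p-values measure only the spread between these arrays. In whole embryos a change in signal cannot separate fewer cells that express a gene from less RNA per cell.

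The UO series has 2 sources that do not match. The values the authors normalized and deposited equalled the UO scanner signals, after the authors' factor, at 0.01% to 0.07% of 9152 probes, with Spearman's rho of 0.881 to 0.923 across probes, so both are given as UO scanner and UO table. For U + actD the table and the scanner files differed by a constant for each array, at 100% of 15116 spots. Scanner signals are net of local background and scaled on spike-in RNA within a series. Median net signal per probe was 50 to 71 on the UO arrays and 162 to 1275 on the U + actD arrays. Of 33 markers of embryonic tissues, 29 were tested and 28 exceeded background at both pulses, among them all 5 neuronal, 4 epidermal and 4 tracheal markers. Act57B of muscle, Hml of hemocytes and nos of the germ line were not among those tested. Of Lsp2 and Fbp1 of the fat body, 1 was tested and did not exceed background at both pulses.

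Tagged mRNA of all 10 genes fell during the chase. At 3 hours the members retained a median of 8.3% of the pulse signal in U + actD, 14.7% in the UO scanner files and 13.9% in the UO table, against 11.2%, 14.4% and 20.1% for all genes. All 10 members exceeded background on every array, counted by any of a gene's probes. Of the 9940 genes, 9147 did at 3 hours in U + actD and 8130 in the UO scanner files. Lower scanner signals were set to the background threshold, probe by probe, which limits the loss that can be measured with such probes. In the UO scanner files 26 of the 31 member probes exceeded background on all 3 arrays. A probe each of arr, dsh, sgg, pan and por did not, so the values of these members there include thresholds. The UO table carries the authors' scaling and the U + actD scanner values the spike-in scaling used here. On the authors' scaling the U + actD medians were 11.2% for the members and 17.2% for all genes. The UO scanner values too carry the scaling used here, with factors of 0.411 at 1 hour and 0.320 at 3 hours relative to the pulse. The factors inferred from the UO table were 1.09 at the pulse, 1.3 at 1 hour and 1.0 at 3 hours. The UO scanner percentages and half-lives therefore depend on the scaling chosen. With each array centred on its median gene, fz and pan were the only members below the median gene at 3 hours in all 3 sources, and no member was above it in all 3. The share of all genes that do so was not counted, and the UO scanner files and UO table are both sources of the UO series. Here and below, the median gene means the median signal of each array and not the median of the genes' changes. That median change was 0.19 log2 in U + actD, 0.13 in the UO scanner files and 0.10 in the UO table. Differences of single members from the median gene did not pass the test. The plot of signal against chase time shows each gene in the 3 sources.

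**Figure D1:**
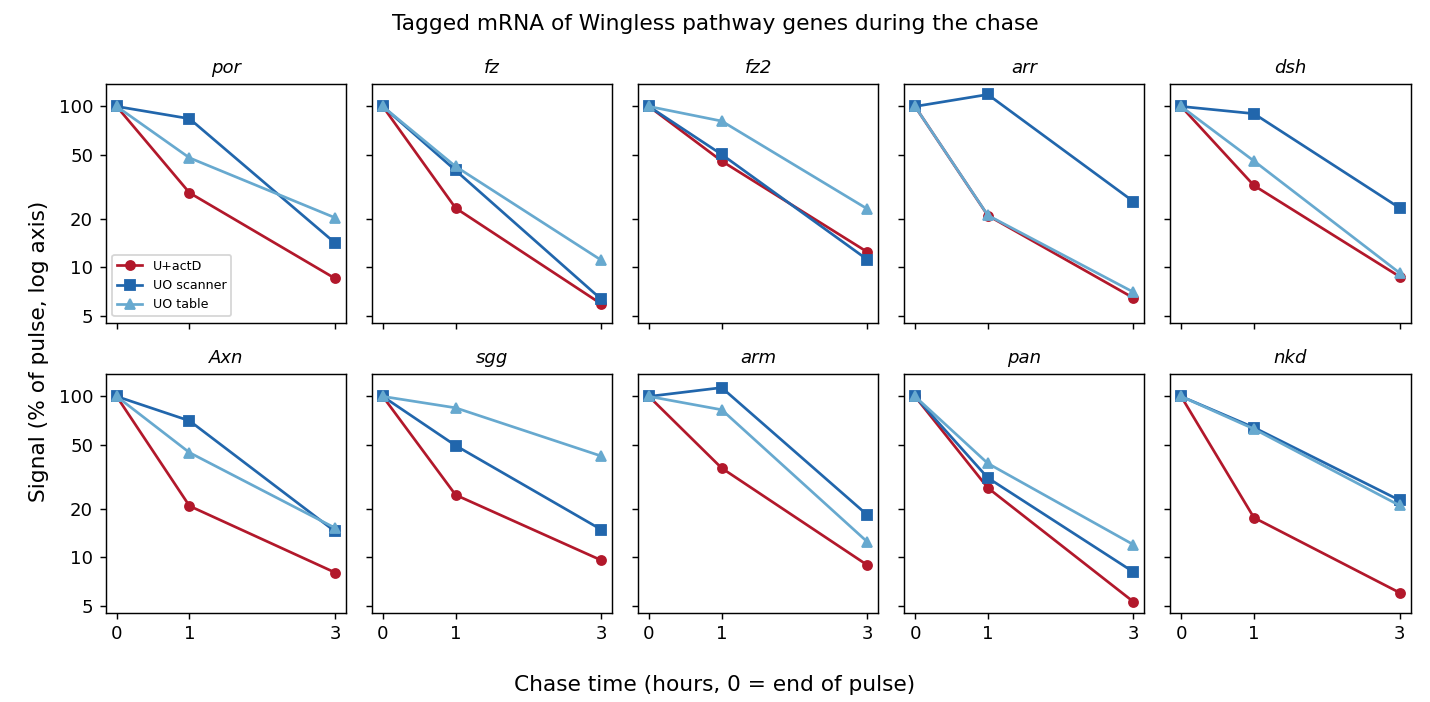
Signal of each gene as a percentage of its pulse (log axis) against chase time in hours, for U + actD, the UO scanner files and the UO table, with 1 array per point and no error bars. At 3 hours the curves of nkd lie apart, with 6.04% of nkd left at 3 hours in U + actD, 22.7% in the UO scanner files and 21.0% in the UO table.

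porcupine (por, CG6205) encodes the acyltransferase that attaches the lipid to Wingless in the cell that makes it. In U + actD, por signal was 3966 at the pulse, 1153 after the 1-hour chase and 339 after the 3-hour chase, so that 8.54% of the pulse remained at 3 hours. The UO scanner files gave 191, 160.1 and 27.1 in the same order, with at most 14.2% of por remaining. There 1 of its 2 probes was below background at 3 hours and was set to the threshold. In the authors' UO values, por stood at 3046, 1460.1 and 619.8, with 20.4% remaining. Its probes, both annotated to 1 transcript, kept 7.18% and 10.2% in U + actD. Set against the median gene of the array, por differed by -0.19 log2 in U + actD, at most 0.10 in the UO scanner files and 0.11 in the UO table.

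Of the receptors, frizzled (fz, CG17697), which also acts in planar cell polarity, was below the median gene in every source. Signal of fz in U + actD went from 45322 at the pulse to 10596 at 1 hour and 2691 at 3 hours, at most 5.94% of the pulse. For fz in UO, the scanner files held 1899, 760.5 and 120.5, and 6.35% remained. fz stood at 15604, 6612 and 1732 in the UO table, so that 11.1% was left. These correspond to changes of -0.72, -1.06 and -0.76 log2 relative to the median gene, at the 13.9th, 5.60th and 12.9th percentile of all genes. The half-life of fz was 46.0, 45.2 and 57.5 min. One of its 3 probes was saturated at the U + actD pulse, which makes that loss a lower bound, and without it fz stood at -1.06 log2 in U + actD. In the UO table the probe annotated to transcript RB kept 7.86% and the RA probes 13.3% and 13.0%. In U + actD the RB probe kept 2.57%, and the RA probes had 42% and 70% saturated pixels at the pulse, so their 8.47% and 9.61% are upper bounds and give no order. In the UO scanner files RB, at 7.22%, lay between the RA probes at 3.77% and 9.39%.

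frizzled2 (fz2, CG9739), the other Wingless receptor, was on either side of the median gene depending on the source. In U + actD, fz2 signal was 24216 at the pulse, 11086 after the 1-hour chase and 3020.5 after the 3-hour chase, so that at most 12.5% of the pulse remained at 3 hours. UO scanner signals of fz2 were 1145, 576 and 128, which left 11.2%. In the authors' UO values, fz2 stood at 45675, 37037 and 10545, with 23.1% remaining. In U + actD 1 of its 2 probes was saturated at the pulse, and the UO table holds that probe alone. That probe fell at least 4.50-fold and the other 14.3-fold, and leaving out the saturated probe moved fz2 from 0.35 to -0.48 log2 relative to the median gene. In the UO scanner files, where neither was saturated, they kept 10.6% and 11.8%. Relative to the median gene fz2 stood at -0.24 log2 there and at 0.30 in the UO table. Its values above the median gene thus rest on the probe that was saturated in U + actD.

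arrow (arr, CG5912) encodes the co-receptor of the LRP family. Signal of arr in U + actD went from 6638 at the pulse to 1395 at 1 hour and 429 at 3 hours, 6.46% of the pulse. The UO scanner files gave 67.7, 80.3 and 17.4 in the same order, with 25.7% of arr remaining. arr stood at 1107, 233 and 77.8 in the UO table, so that 7.02% was left. The UO scanner value stands apart from the other 2 sources, and there the arr probes were close to background. Net signals were 90, 222 and 59 for 1 probe, and the other exceeded background only at the 1-hour chase. Signals below background were set to the background threshold, so the 31.4% that the dimmer probe kept is a ratio of thresholds, against 21.0% for the brighter one. In U + actD, where both were well measured, they kept 5.78% and 7.23%. In the UO table the same probes kept 23.3% and 2.12%, so the gene's value there is the mean of 2 unlike probes. Relative to the median gene arr was at -0.59 log2 in U + actD and -1.42 in the UO table, but 0.96 in the UO scanner files.

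In the cytoplasm, dishevelled (dsh, CG18361) relays the signal from the receptors. In U + actD, dsh signal was 4636 at the pulse, 1497 after the 1-hour chase and 407 after the 3-hour chase, so that 8.77% of the pulse remained at 3 hours. For dsh in UO, the scanner files held 181, 164 and 42.5, and 23.4% remained. In the authors' UO values, dsh stood at 7759.7, 3557 and 718, with 9.25% remaining. The UO table holds 1 of its 2 probes. That probe kept 4.88% in U + actD, and the other, which exceeded background on only 1 UO array, kept 15.8%. In the UO scanner files they kept 17.5% and 31.4%, the latter again a ratio of background thresholds. Relative to the median gene dsh was at -0.15, 0.83 and -1.02 log2 in U + actD, UO scanner and UO table, so the UO sources stood on opposite sides.

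Axin (Axn, CG7926) is the scaffold of the destruction complex. Signal of Axn in U + actD went from 18350.2 at the pulse to 3830.3 at 1 hour and 1478 at 3 hours, 8.05% of the pulse. UO scanner signals of Axn were 593, 418 and 85.9, which left 14.5%. Axn stood at 6204, 2778 and 946 in the UO table, so that 15.2% was left. Its 3 probes kept 6.19% to 10.8% in U + actD but 6.85% to 35.6% in the UO scanner files. Axn stayed near the median gene in each source, at -0.28, 0.14 and -0.30.

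shaggy (sgg, CG2621) encodes the kinase that phosphorylates Armadillo, and had the most probes, 7. In U + actD, sgg signal was 11082 at the pulse, 2709.5 after the 1-hour chase and 1065 after the 3-hour chase, so that at most 9.61% of the pulse remained at 3 hours. The UO scanner files gave 575, 284 and 85.6 in the same order, with 14.9% of sgg remaining. In the authors' UO values, sgg stood at 5892, 5005 and 2511, with 42.6% remaining. The value of 42.6% was the highest among the members in any of these sources. It averaged 4 probes that kept between 17.6% and 93.5%. The probe at 93.5% read 832, 932 and 778 in the UO table, while in U + actD the same probe kept 2.66%, the lowest of the gene. The 4 probes that the U + actD annotation gives to transcript RJ kept 2.66% to 16.2% in U + actD. The UO annotation splits them into pairs of different transcripts, which kept 16.2% and 10.1%, and 2.66% and 4.9%. Of the pair that the U + actD annotation gives to RG, 1 kept 10.2% and the other, saturated at the pulse, at most 22.7%. The UO annotation gives that pair different transcripts too.

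armadillo (arm, CG11579) encodes beta-catenin, which also links cadherins to actin at cell junctions. Signal of arm in U + actD went from 48202 at the pulse to 17289 at 1 hour and 4318 at 3 hours, at most 8.96% of the pulse. For arm in UO, the scanner files held 2106, 2387 and 386, and 18.4% remained. arm stood at 13334, 11017 and 1666 in the UO table, so that 12.5% was left. Its probes gave different answers. The RC probe that was used kept 1.90% in U + actD, a 52.7-fold loss, while the RB probes kept 18.0% and at most 21.1%. The probe left out for its UO pulse spot is annotated to RC too. In U + actD it read 1764, 665 and 317 before scaling, against 40229, 12166 and 757 for the used RC probe. The RC probes thus differed from each other, and in U + actD the difference did not follow the annotated transcript. The UO table had the same order for the probes used, with 6.38% for RC and 24.4% for RB. In the UO scanner files the order was the opposite, with 54.2% for RC and 9.93% and 11.5% for RB. There the used RC probe read 360 at the pulse, 3646 at 1 hour and 609 at 3 hours before scaling, against 10054, 6908 and 642 in the UO table. The probe differences in fz, sgg, arm and pan were picked out after their values were seen, and whether a probe detects only the transcript it is annotated to is not given in the sources used here.

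In the nucleus, pangolin (pan, CG34403), the TCF protein that recruits Armadillo to target genes, was like fz below the median gene in every source. In U + actD, pan signal was 28686 at the pulse, 7756 after the 1-hour chase and 1521 after the 3-hour chase, so that at most 5.30% of the pulse remained at 3 hours. UO scanner signals of pan were 999, 312 and 81.2, which left 8.12%. In the authors' UO values, pan stood at 30048, 11528 and 3606, with 12% remaining. Relative to the median gene it was at -0.88, -0.70 and -0.65 log2, and its half-life was 43.5, 51.1 and 60.4 min. Of its 5 probes 2 were saturated at the U + actD pulse. The RI probe, saturated, fell at least 37.5-fold in U + actD. It kept 4.70% in the UO table, where the RJ probes kept 10.9% to 27.4%. The RJ probes that were not saturated kept 4.05% to 5.33% in U + actD, and the saturated one at most 15.7%. In the UO scanner files 4 pan probes kept 4.09% to 9.16%, with RI the highest of these at 9.16%. The dimmest, below background at 3 hours, kept at most 14.0%.

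naked cuticle (nkd, CG11614) encodes an inhibitor that Wingless itself induces and that binds Dishevelled. Signal of nkd in U + actD went from 20681 at the pulse to 3653 at 1 hour and 1249.8 at 3 hours, 6.04% of the pulse. The UO scanner files gave 446, 286 and 101 in the same order, with 22.7% of nkd remaining. nkd stood at 4441, 2787 and 934 in the UO table, so that 21.0% was left. On the authors' scaling the U + actD arrays kept 10.5% of nkd, so the distance from the UO table depends on the scaling. The 2 probes of nkd were close to each other, at 6.01% and 6.08% in U + actD and 23.3% and 22.1% in the UO scanner files. nkd half-lives were 47.4 min in U + actD (56.0 min on the authors' scaling), 83.4 min in the UO scanner files and 79.4 min in the UO table.

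**Figure D2:**
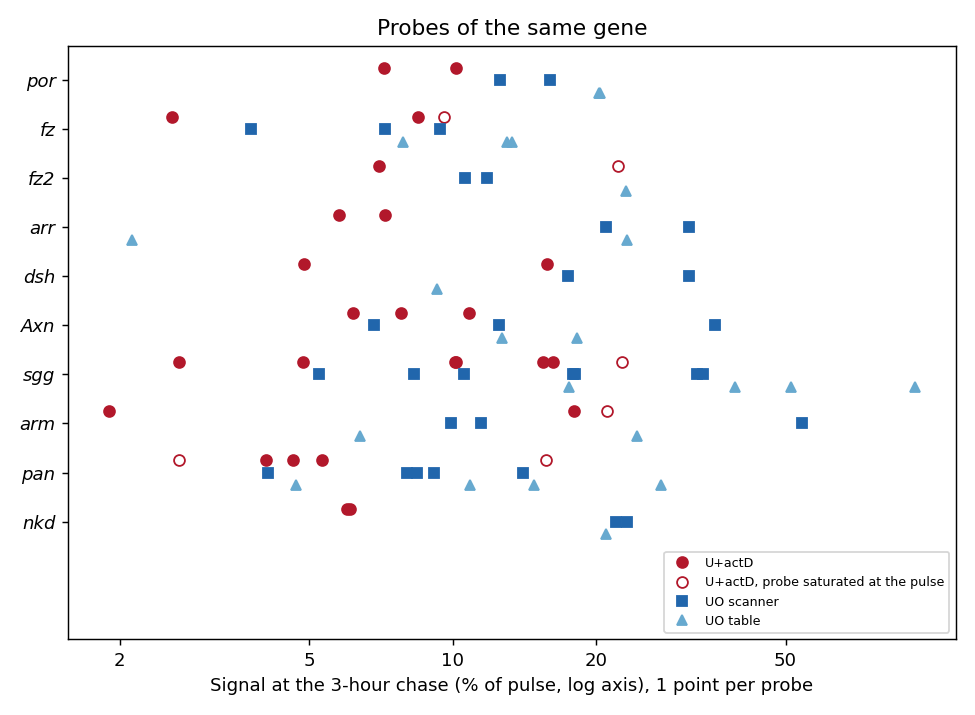
Signal left at the 3-hour chase as a percentage of the pulse (log axis), 1 point per probe, by gene and source, with open circles for probes saturated at the U + actD pulse, whose true value is at most the one drawn. The nkd probes nearly coincide within a series, whereas those of arm, sgg and pan run over a wide range, from 1.90% to at most 21.1% for arm in U + actD.

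The question put to the fits was whether these mRNAs left the tagged pool, and whether they did so at another rate than the rest of the transcriptome. On the spike-in scale all 10 members were lower at the 3-hour chase than at the pulse in limma's fit over the 6 arrays with series as a block, against 98.5% of all genes tested. Estimates ran from -4.03 ± 0.71 log2 (SE) for fz to -2.80 ± 0.71 for dsh, with adjusted p of 6.38e-07 to 0.000116, and their median was -3.09 against -2.99 for all genes. The fit shrank the variances to 1 common value, so every gene has this SE. The p-values treat this spread, pooled over the genes of the same 6 arrays, as known. An error in an array's spike-in scaling would shift all its genes alike, so these small p-values are not 10 separate pieces of evidence. All 10 were also called lower in the table, against 94.7% there. Without the series as a block, or with each array scaled on its own distribution, 0 members were called by limma (adjusted p = 0.461 for each without the block). At the 1-hour chase 0 of 10 were called in limma's fit, against 0.412% of all genes, and 4 had an unadjusted p under 0.05, as had 3091 of the 9940 genes. The median estimate was -1.22 log2 for the members and for all genes.

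Relative to the median gene, 0 of 10 members passed limma's test at 3 hours, against 0% of all 9940 genes, of which 1148 had an unadjusted p under 0.05. The lowest estimates were -0.89 ± 0.40 log2 for fz (adjusted p = 0.471) and -0.79 ± 0.47 for pan (adjusted p = 0.615), and the highest was 0.34 ± 0.44 for dsh (adjusted p = 0.884). The estimates of fz and pan stayed negative in each of 18 alternatives, between -1.18 and -0.66 for fz and between -1.19 and -0.40 for pan. Their adjusted p ran from 0.0861 to 0.969 and from 0.105 to 0.989. In the table, where 1.59% of 7999 genes were called, 0 of 10 members were, with the lowest adjusted p, 0.154, for dsh. At 1 hour 0 of 10 members were called relative to the median gene, as were 0% of all genes in limma's fit.

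**Figure D3:**
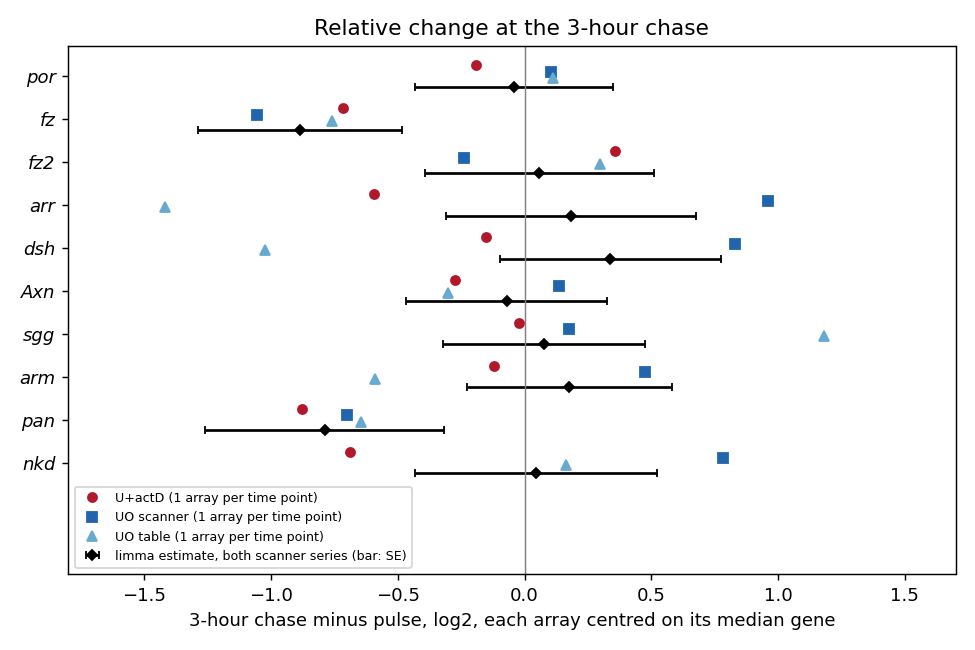
Change from the pulse to the 3-hour chase in log2 units after each array was centred on its median gene (0 on the axis), by gene, as 1 value per source and as the limma estimate over both scanner series with its SE. fz and pan lie left of 0 in every source, while arr and dsh lie on opposite sides in the UO scanner files and the UO table.

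Members above the array medians at 3 hours numbered 1 of 10 in U + actD, 7 in the UO scanner files and 4 in the UO table. Of all genes, 58.2%, 55.9% and 55.5% were above them in these sources. Among the 7, por at 0.10 log2, with a probe below background at 3 hours, lay at the 49.1th percentile of all genes. The 1 member in U + actD was fz2, whose value rests on the saturated probe. The difference in slope between the series, U + actD minus UO per chase hour after both were given equal mean ratios, was called for 0 of 10 members and 6.52% of all genes by limma. Its lowest values were -0.50 ± 0.24 log2 per hour for nkd (adjusted p = 0.23) and -0.49 ± 0.25 for arr (adjusted p = 0.263). In the table's fit, which called 2.66% of genes, nkd was at -0.27 ± 0.27 and arr at 0.21 ± 0.27, so the direction for arr turned with the UO source.

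Half-lives came from a single exponential through the 3 time points and were used where the adjusted R2 was at least 0.75. All 10 members met this in U + actD and in the UO table and 8 did in the UO scanner files, where arr and arm did not. Members' half-lives lay between 43.5 min (pan) and 60.5 min (fz2) in U + actD, with a median of 52.7 min against 54.3 min for all genes, but those of fz, fz2, arm, sgg and pan are upper bounds because a probe was saturated at the pulse. Without saturated probes fz2 was at 47.6 min, arm at 44.9 min and sgg at 53.6 min, and the highest was sgg. On the authors' scaling the U + actD medians were 56.0 min for the 9 members with an adequate fit and 66.9 min for all genes. In the UO scanner files, on the spike-in scaling used here, they ran from 45.2 min (fz) to 83.4 min (nkd), with a median of 61.6 min against 58.1 min. In the UO table they ran from 49.7 min (arr) to 142 min (sgg), with a median of 64.0 min against 72.4 min. Both ends averaged unlike probes. Those of arr stood at 89.5 and 34.4 min. Those of sgg stood at 71.8 and 136 min, and at 163 and 1301 min with an adjusted R2 below 0.75. The order of the members changed with the source, and with 1 array per time point no half-life has a replicate error, so neighbours in these orders cannot be separated.

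**Figure D4:**
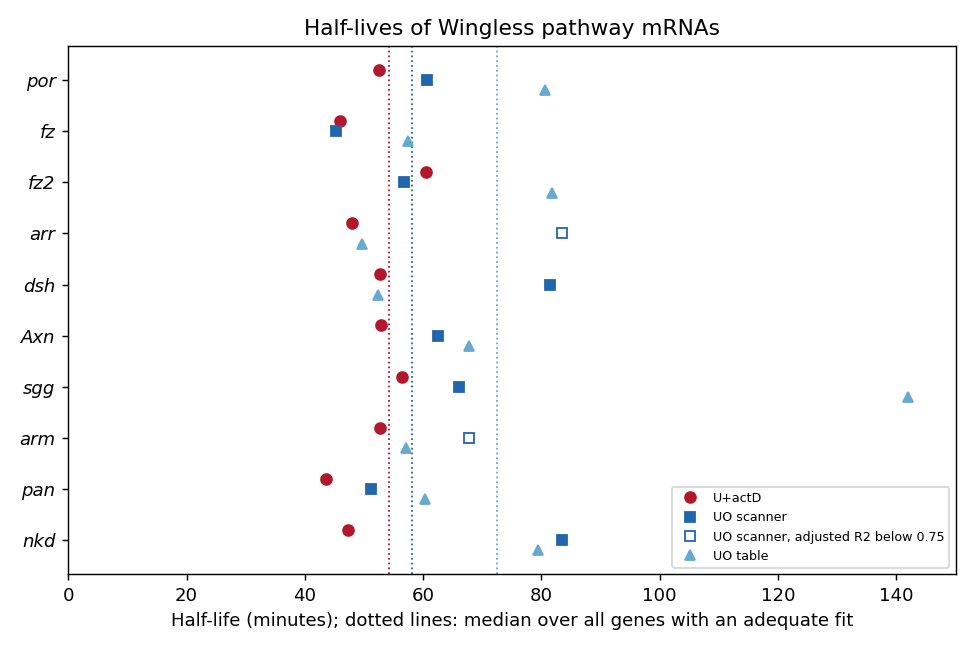
Half-life in minutes of each gene in the 3 sources, with open squares for fits of adjusted R2 below 0.75 and dotted lines at the median of all genes with an adequate fit (54.3, 58.1 and 72.4 min). In U + actD the 10 points lie between 43.5 and 60.5 min, those of fz, fz2, arm, sgg and pan being upper bounds from saturated pulse probes. In the UO table sgg lies apart at 142 min, a value that averages unlike probes.

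Level at the pulse reflects synthesis and decay over 1 hour together with probe brightness, so levels are not ranked between genes. At the U + actD pulse fz, fz2, arm, sgg and pan had a saturated probe, so their levels there are lower bounds. Centred on the median gene of the array, 8 of 10 members were above it at the U + actD pulse and 7 of 10 at the UO pulse in the scanner files, with medians of 1.60 and 0.93 log2. In the values the authors normalized, 8 of 10 were above it at each pulse. por was below it at both pulses in both sources, at -0.69 in U + actD and -0.68 in UO in the scanner files. dsh was below it in the scanner files, at -0.47 and -0.75, and above it in the table, at 1.05 and 0.90, where its dimmer probe, which was below background at the UO pulse, is not included. For arr the pulses differed in the scanner files, at 0.05 in U + actD and -2.17 in UO, where 1 of its probes was below background, and less in the table, at -0.66 and -1.91. In the table nkd differed most, at 1.79 and 0.09.

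A further 59 genes of Wingless signalling were listed by role and 57 of them were tested. All 57 were called lower at 3 hours on the spike-in scale by limma, against 98.5% of all genes. In the relative changes 0 were called, against 0% of all genes, and in the slope difference 0, against 6.52%. wg, the ligand itself, was at 0.45 log2 relative to the median gene in U + actD, 0.02 in the UO scanner files and 1.19 in the UO table. Of those above background on all arrays, the 3 lowest estimates were -0.88 for the Frizzled family member fz4, -0.76 for the chromatin remodeller Chd1 and -0.75 for the glypican dally, which had a saturated probe on 1 array and moved to -0.39 without saturated probes. The 3 highest were 0.77 for Notum, a secreted enzyme that removes the lipid from Wingless, 0.77 for the destruction complex protein Apc2 and 0.66 for the ubiquitin ligase subunit SkpA, with adjusted p of 0.557, 0.597 and 0.753. SkpA was at 1.62 in U + actD but -0.30 in the UO scanner files, and at -0.19 without the U + actD 3-hour array. fz4 and slp2, a segment polarity transcription factor, were the genes more than 0.5 log2 from the median gene on the same side in all 3 sources, at -0.58, -1.17 and -0.52 for fz4 and -0.60, -0.67 and -1.73 for slp2.

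The profile of the 10 members averaged -0.02 and -0.33 log2 at 1 and 3 hours in U + actD and -0.08 and 0.15 in UO. Among 7544 genes above background on all 6 arrays, Hipk, CG5938, UGP, EDTP and CG3156 were nearest to it, with root mean square differences of 0.043 to 0.092 over these 4 values. The members themselves lay between 0.188 (Axn) and 0.735 (pan) from their own mean, so that this mean describes few of them.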

How the data were processed

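The authors hybridised tagged RNA to Agilent 4x44K arrays. Per the file headers, scanner output consists of spot intensity (mean foreground, local background and the difference) and the percentage of pixels that were saturated. The table deposited by the authors holds normalized intensity, 1 factor per array, set on the spike-in RNA according to the methods. Scanner software and gene build are not given in the sources used here.

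From the scanner files, spots with a local background over 1000 were left out and spots of a probe were averaged. A probe was kept if it was brighter than 95% of the 153 negative control spots (their 95th percentile) in both series at 1 time point or more (15128 probes, 9940 genes), and lower signals were set to that threshold. A probe with at least 50% saturated pixels was called saturated. Arrays were scaled within a series on 5 (UO) or 4 (U + actD) spike-in transcripts, and the log2 signals of a gene's probes were averaged.

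limma 3.58.1 under R 4.3.3 (lmFit, eBayes) fitted series plus time point (2 series, 6 arrays), and the slope difference came from an added interaction of series with chase hours, all with Benjamini-Hochberg adjustment at 0.05. All arrays were taken to have equal variance. The scripts were tested on simulated data. Python 3.11.15 was used for the rest. Levels at this depth are limited by the number of arrays.

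The members, the pathway list, the markers and the rules were chosen with earlier results of these data known. All members were named. Of the other pathway genes, wg was named, as were those called, the 3 highest and 3 lowest relative changes among genes above background on all arrays, and those over 0.5 log2 on the same side in all 3 sources. The alternatives were background correction, filter, floor, saturated probes, probe choice, scaling, the authors' table, the series block and leaving out each array. Keeping spots with a high local background was added after seeing the data.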

Additional observations from a re-analysis of the deposited data

Results flagged for a closer look

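In 3 members the relative change at the 3-hour chase had 1 sign in the U + actD scanner values and the other in both UO sources. sgg was at -0.021 log2 in U + actD, 0.17 in the UO scanner files and 1.18 in the UO table. nkd was at -0.69, 0.78 and 0.16 in the same order, and por at -0.19, 0.10 and 0.11. The sign is set by the array medians, and por in the UO scanner files lay at the 49.1th percentile of all genes. A por probe there was below background at 3 hours, so its 0.10 is an upper bound. The slope difference between the series by limma was -0.11 ± 0.24 log2 per hour (SE) for sgg (adjusted p = 0.848), -0.50 ± 0.24 for nkd (adjusted p = 0.23) and -0.11 ± 0.24 for por (adjusted p = 0.849), so none passed the test. Leaving out the saturated probe moved sgg to -0.23 in U + actD. In the U + actD values the authors normalized, which like the UO table hold 4 of its 7 probes, sgg was at 0.10. There it had the sign of both UO sources, while nkd and por stayed negative, at -0.63 and -0.12.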

How the results depend on the processing

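On the spike-in scale all 10 members were called at 3 hours in every alternative except scaling on the 75th percentile, quantile scaling and the fit without the series block, where 0 members and 0 genes were called. Scaling on each array's own distribution removes a shared loss by its construction. On the 75th percentile scale fz (-0.69) and pan (-0.59) stayed negative and the others turned, to 0.13 for Axn, 0.38 for arm, 0.38 for arr, 0.54 for dsh, 0.26 for fz2, 0.24 for nkd, 0.16 for por and 0.28 for sgg, and on the quantile scale fz (-0.72), fz2 (-0.48), arr (-0.19), pan (-1.18) and por (-0.34) stayed negative and the others turned, to 0.061 for Axn, 0.26 for arm, 0.11 for dsh, 0.16 for nkd and 0.060 for sgg. Members called in the other comparisons stayed at 0. Over all genes, the change at 1 hour was called for 41, and for 21 with normexp, 2 above background on all arrays, 107 with no floor, 0 with no filter, either other scaling, the table or no block, and 0 to 84 with an array left out. Relative changes at 3 hours were called for 0 genes, for 127 in the table and for 0 to 777 with an array left out (777 without the UO pulse, 72 without the U + actD pulse), and at 1 hour for 0 to 146. The slope difference was called for 648 genes, for 57 with no background subtraction, 1738 with normexp, 208 without saturated probes, 213 in the table and 0 with quantile scaling, no floor or genes above background on all arrays. It could not be fitted with an array left out, which leaves no residual degrees of freedom. Relative changes at 3 hours took the other sign for 8 members with an array left out, 5 each with normexp or no filter, 4 each in the table or with no background subtraction, 3 each with quantile scaling or above background on all arrays (dsh among the latter), 2 with the brightest probe and 1 each with no floor or without saturated probes, and for fz and pan in none of the alternatives. The labels number no replicates, and the series block sets each chase against the pulse of its own series. The U + actD arrays held 31 member probes above background on all 3 arrays and the UO scanner arrays 26.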
